A study of Rattus norvegicus with 9 samples.

Results

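The NADPH oxidase genes of rat liver were described here across 3 groups of rats. The 9 genes were Nox1, Nox4, Cybb, Cyba, Ncf1, Ncf4, Duox1, Duox2 and Duoxa2, chosen by their symbols, and all 9 were found among the 32883 genes of the deposited table. Liver mRNA was sequenced on an Illumina NovaSeq instrument in 9 male Sprague-Dawley rats, with 1 library per rat and 3 rats in each group. The normal control group (rats N1, N3 and N12) received a normal diet and no carcinogen. The DEN model group (M13, M17 and M24) received weekly intraperitoneal diethylnitrosamine (DEN, a liver carcinogen) at 0.01% in a protocol of 16 weeks, which leads from fibrosis to hepatocellular carcinoma. The PZH administration group (G27, G28 and G42) received the same DEN and also Pien-Tze-Huang (PZH), a traditional Chinese formula. The treatment label of the M rats also reads PZH. Groups were therefore taken from the rat names, which match the groups of 3 rats in the study's methods. The PZH dose and the week at which each sequenced rat was killed were not given in the sources used here, although the study used a low and a high dose. Rat ages were likewise not given, and each library came from a piece of whole liver, in which tumor and surrounding tissue were not separated by the labels.

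NADPH oxidases carry electrons from NADPH across a membrane to oxygen and release superoxide or hydrogen peroxide. In the phagocyte enzyme, the catalytic subunit gp91phox (Cybb, also called NOX2) is held in the membrane by p22phox (Cyba) and is switched on when cytosolic subunits, among them p47phox (Ncf1) and p40phox (Ncf4), join it with a Rac GTPase. NOX4 also needs p22phox but is active without the cytosolic subunits, NOX1 is best known from colon epithelium, and the dual oxidases DUOX1 and DUOX2 make hydrogen peroxide at epithelial surfaces and in the thyroid and need the maturation factors DUOXA1 and DUOXA2. In liver, the phagocyte oxidase is best known from Kupffer cells and other leukocytes, while Nox4 has been described in hepatocytes and stellate cells.

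The sequence upstream of 4 members is shown because these genes stand for the patterns described below: Cybb and Ncf1 (phagocyte subunits), Nox4, and Duox2. The windows are the 250 bases before the start used by the RefSeq promoter table (GRCr8), given 5′ to 3′ on the strand of the gene, and 7 of the 9 members were matched in that table. Capitals mark matches to 7 short motifs searched on both strands, which were picked after the windows had been seen. Cybb lies at chrX:16065066-16065315 (minus strand), Ncf1 at chr12:28121635-28121884 (plus strand), Nox4 at chr1:150313639-150313888 (plus strand) and Duox2 at chr3:129698754-129699003 (minus strand).
Cybb: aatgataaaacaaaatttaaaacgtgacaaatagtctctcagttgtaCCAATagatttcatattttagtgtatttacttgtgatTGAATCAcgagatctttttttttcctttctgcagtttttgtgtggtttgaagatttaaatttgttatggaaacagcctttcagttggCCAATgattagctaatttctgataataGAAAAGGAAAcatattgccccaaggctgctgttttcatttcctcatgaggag
Ncf1: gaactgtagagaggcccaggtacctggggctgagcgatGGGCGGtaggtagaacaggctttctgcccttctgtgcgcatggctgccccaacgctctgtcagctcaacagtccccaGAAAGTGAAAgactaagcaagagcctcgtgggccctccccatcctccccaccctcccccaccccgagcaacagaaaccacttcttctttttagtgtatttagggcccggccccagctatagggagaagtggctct
Nox4: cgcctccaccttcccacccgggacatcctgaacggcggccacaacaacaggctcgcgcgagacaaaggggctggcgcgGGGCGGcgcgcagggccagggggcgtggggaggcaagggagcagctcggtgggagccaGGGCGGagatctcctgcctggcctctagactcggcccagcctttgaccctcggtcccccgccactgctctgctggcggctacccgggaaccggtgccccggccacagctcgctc
Duox2: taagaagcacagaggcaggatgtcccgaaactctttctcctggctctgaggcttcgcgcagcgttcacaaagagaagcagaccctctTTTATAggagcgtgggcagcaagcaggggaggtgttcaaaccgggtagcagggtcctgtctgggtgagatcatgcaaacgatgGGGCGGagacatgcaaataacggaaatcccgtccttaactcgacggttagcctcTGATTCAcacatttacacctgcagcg

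A form of the interferon regulatory factor element, spelled GAAA, any 2 bases and GAAA again, was found in the Cybb window (GAAAAGGAAA, beginning 52 bases before the start) and in the Ncf1 window (GAAAGTGAAA, 135 bases before it), and in 3.41% of all 33469 promoter windows. TGANTCA, the AP-1 element, was found in Cybb (166 bases) and in Duox2 (26 bases), against 6.34% of all windows. GGGCGG, the GC box, was found at 172 and 114 bases in Nox4, at 212 in Ncf1 and at 80 in Duox2, against 30.5% of windows. CCAAT was found at 203 and 79 bases in Cybb (34.0% of windows), and TATAAA on the opposite strand at 163 bases in Duox2 (12.9%). TTCNNNGAA (STAT, 7.67% of windows) and GAGGAAGT (PU.1, 2.04%) had no match in the windows of these 7 members. No motif match overlapped another in the 4 windows shown. GC content was 32% in the Cybb window, 53.6% in Duox2, 58.4% in Ncf1 and 72.8% in Nox4. In RefSeq another start lies further upstream for 3 of these genes, so that 153 bases of the Nox4 window, 133 of the Duox2 window and 69 of the Ncf1 window fall inside the gene itself, and 66 bases of the Duox2 window fall inside Duoxa2. These matches are a description of letters and not of binding.

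In the coordinates of the deposited table, whose genome build was not given in the sources used here, Nox4 spans 1:150797084-150976194 and Cybb X:14578264-14612547. Cyba spans 19:55249616-55257876, Ncf1 12:25497104-25506300 and Ncf4 7:119482272-119499425. Nox1, at X:104909326-104932508, overlaps Cstf2. The other members overlap no gene of the table. Duox2 (3:114218193-114235933), Duoxa2 (3:114236718-114240086) and Duox1 (3:114253637-114286802) are neighbours, with 784 bases between Duox2 and Duoxa2 and 13550 bases between Duoxa2 and Duox1. All 9 are annotated as protein coding.

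Total counts were between 14922973 and 27161496 per rat, with G27 the deepest. Albumin (Alb) was at 14128.5 CPM or more in every library. CPM here means counts scaled to an equal library size with TMM factors, which correct for a few genes taking a large share of the reads; the TMM factors were 0.731 to 0.799 in normal control rats, 1.21 to 1.58 in DEN model rats and 0.864 to 0.942 in PZH administration rats. With library totals in place of TMM, all genes together had a median log2 fold change of 0.89 in DEN model against normal control rats and -0.67 in PZH administration against DEN model rats. A count of 3 equalled 0.125 to 0.252 CPM, and this floor covers counting error only. Genes were tested with the quasi-likelihood test of edgeR, and a gene was called changed when its p, adjusted by Benjamini-Hochberg over all genes tested, was under 0.05. In bulk tissue, fewer cells of a type and less RNA per cell cannot be told apart.

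DEN model rats were compared with normal control rats to ask which genes changed with the disease. Among the members, Cybb, Cyba, Ncf1 and Ncf4, the subunits of the phagocyte oxidase, were all higher in DEN model rats, by 1.92-fold to 4.33-fold. Nox4 was 27.8-fold lower. Duox2 and Duoxa2 were nearly absent from normal liver and were higher in 2 of the 3 DEN model rats, M13 and M24. Duox2 was at 29.5 and 52.6 CPM in these rats, and Duoxa2 at 2.80 and 6.70 CPM. Of the 6 members that passed the filter on low counts, 5 were called (4 higher, 1 lower), against 45.8% of all 14255 genes tested (25.3% higher, 20.5% lower). Under the study's thresholds (a log2 fold change beyond 2 in either direction with an unadjusted P below 0.001), Nox4 and Ncf1 passed, against 12.3% of all genes. Nox1, Duox2 and Duoxa2 did not pass the filter.

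**Figure D1:**
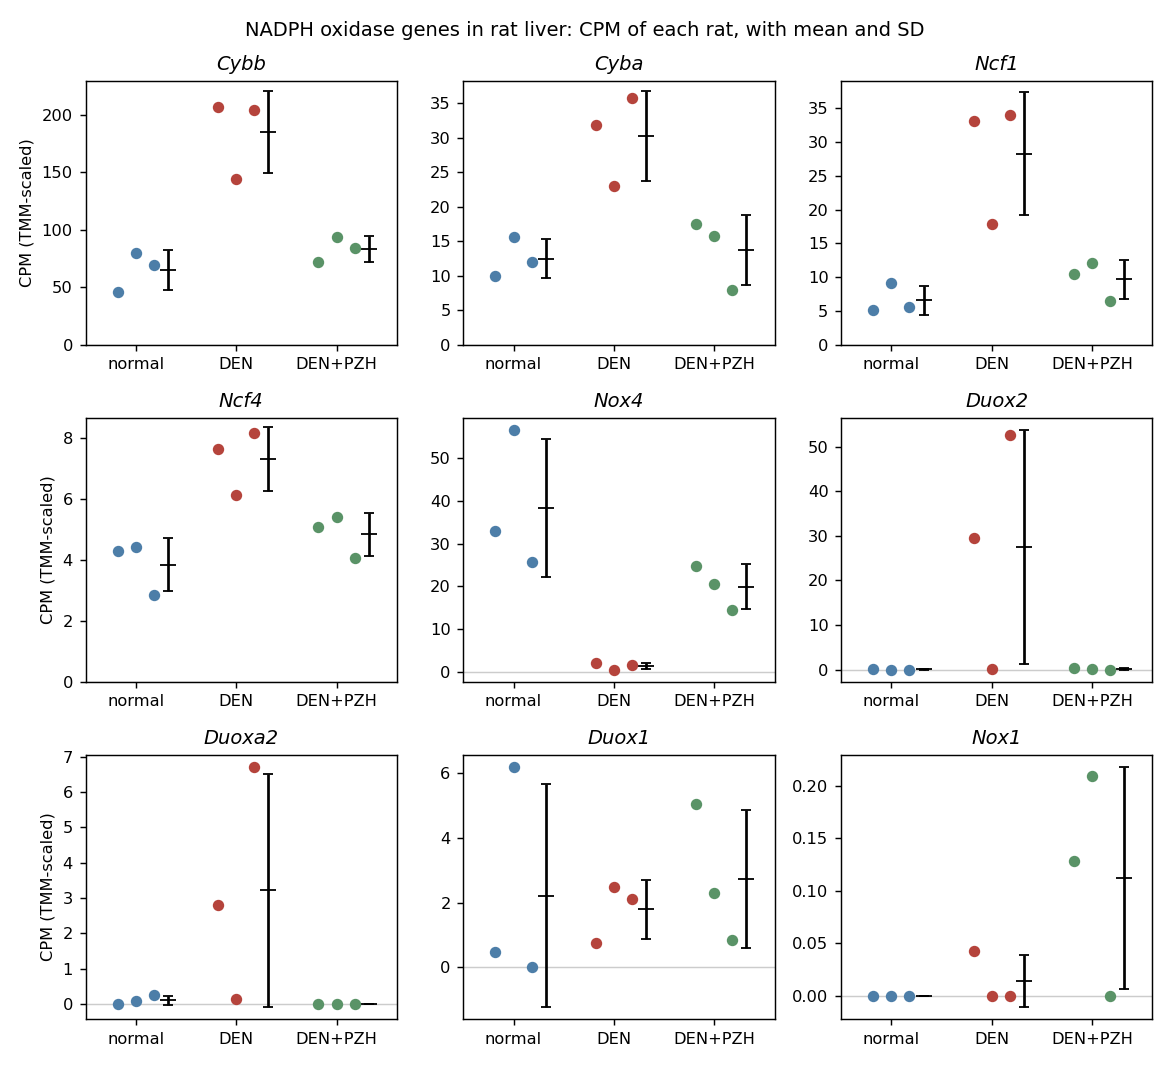
CPM (TMM-scaled, linear axis from 0 or just below) of the 9 members in each rat; points are rats, and the bar beside each group is the mean with the SD over 3 rats. Cybb, Cyba, Ncf1 and Ncf4 are highest in the 3 DEN model rats, Nox4 lowest there, and Duox2 and Duoxa2 are high in M13 and M24 but not in M17.

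Cybb, which encodes the catalytic core of the phagocyte oxidase, was at 45.5 CPM in N1, 69.1 in N3 and 79.5 in N12. In DEN model rats it was at 207 CPM in M13, 144 in M17 and 205 in M24, so that every DEN model rat was above every normal control rat. The log2 fold change was 1.53 with a standard error (SE) of 0.27 (adjusted p = 0.0024), or 2.89-fold. Cyba, the membrane partner of both Cybb and Nox4, was at 9.91, 12.0 and 15.6 CPM in the normal control rats N1, N3 and N12 and at 31.9, 23.1 and 35.9 CPM in M13, M17 and M24. The groups did not overlap, and the log2 fold change was 1.29 (SE 0.25, adjusted p = 0.0035). Groups without overlap were seen for 31.4% of all genes tested in the higher direction and for 27.4% in the lower.

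Ncf1, the organizing subunit that carries the activation signal to the membrane, had the largest fold change of the phagocyte subunits. It was at 5.15 CPM in N1, 5.53 in N3 and 9.07 in N12, and at 33.1 CPM in M13, 17.8 in M17 and 34.0 in M24. Its log2 fold change was 2.11 (SE 0.33, adjusted p = 0.0014), or 4.33-fold. The 95% interval, 1.37 to 2.86, overlapped those of Cybb (0.92 to 2.14), Cyba (0.73 to 1.85) and Ncf4 (0.31 to 1.57). The difference between these genes was not tested. Ncf4, which binds phosphoinositides on the phagosome, was at 4.29, 2.85 and 4.42 CPM in N1, N3 and N12 and at 7.64, 6.14 and 8.19 CPM in M13, M17 and M24. Its log2 fold change was 0.94 (SE 0.28, adjusted p = 0.023), and its adjusted p rose to 0.078 without M13 and 0.075 without M24. In all 4 genes M17 was the lowest of the DEN model rats.

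Nox4, whose product makes mostly hydrogen peroxide, was at 32.9 CPM in N1, 25.7 in N3 and 56.6 in N12. In DEN model rats it was at 2.0 CPM in M13, 0.495 in M17 and 1.54 in M24, from 47, 10 and 37 reads. The highest DEN model rat was thus more than 10-fold below the lowest normal control rat. The log2 fold change was -4.80 (SE 0.50, adjusted p = 0.00027). M17 had the least Nox4 of the DEN model rats, from 10 reads.

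Duox2 encodes a dual oxidase of epithelial surfaces. It was counted 2, 0 and 0 times in N1, N3 and N12, and 694, 4 and 1265 times in M13, M17 and M24, which is 29.5, 0.198 and 52.6 CPM. M17 thus lay near the normal control rats while M13 and M24 lay far above them. Pooled over rats, the ratio of DEN model to normal control CPM was 548, with a 95% counting interval of 152 to 4529 that holds no spread between rats. Duoxa2, which carries DUOX2 out of the endoplasmic reticulum, was counted 0, 3 and 1 times in N1, N3 and N12, and 66, 3 and 161 times in M13, M17 and M24. Its pooled ratio was 32.1 (counting interval 12.4 to 119), and it was high in the same 2 rats. In the fit without a filter, an alternative, the adjusted p was 0.0063 for Duox2 and 0.019 for Duoxa2, and the fitted fold changes are not given because they depend on the prior count. With a rat left out, both genes passed the filter in 4 fits, through the DEN model rats in which they are high, so the adjusted p of these fits is a description and no support. The adjusted p without a normal control rat was 0.034 to 0.048 for Duox2 and 0.047 to 0.073 for Duoxa2. Without M17 it was 2.9e-05 and 0.0013, in a fit that leaves out the only DEN model rat with few counts. Both ratios rested on M13 and M24, and without M24 they were 302 for Duox2 and 14.9 for Duoxa2.

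Duox1, the neighbouring dual oxidase gene, did not follow Duox2. It was at 0.468 CPM in N1, 0 in N3 and 6.18 in N12, and at 0.764, 2.47 and 2.12 CPM in M13, M17 and M24. The groups overlapped, and the log2 fold change was -0.31 with a 95% interval of -2.93 to 2.30 (adjusted p = 0.84). That interval is wide, and the value was 2.89 without N12. Nox1 was counted 0 times in the normal control rats and M17 and M24, and 1 time in M13, so that no fold change can be given and it was not detectable at this depth in normal control rats.

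PZH administration rats were compared with DEN model rats to ask which genes differed when PZH was given beside DEN. In PZH administration rats Nox4 was 14.96-fold higher, and Cybb, Cyba and Ncf1 were lower by 2.15-fold to 2.87-fold. Of the 6 members tested, 4 were called (1 higher, 3 lower), against 19.1% of all 14272 genes tested (8.72% higher, 10.3% lower). Under the study's thresholds Nox4 alone passed, against 2.43% of all genes. This comparison shares the DEN model rats with the preceding one, so an opposite sign in the 2 comparisons is no independent support.

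Nox4 was at 24.9 CPM in G27, 20.6 in G28 and 14.4 in G42, all above the 2.0 CPM of the highest DEN model rat. The log2 fold change was 3.90 (SE 0.47, adjusted p = 0.0078). Cybb was at 72.1 CPM in G27, 94.0 in G28 and 84.0 in G42, all below the DEN model rats, with a log2 fold change of -1.13 (SE 0.22, adjusted p = 0.016). Cyba was at 17.5, 15.7 and 7.97 CPM in the same order of rats (log2 fold change -1.11, SE 0.32, adjusted p = 0.044). Ncf1 was at 10.4, 12.1 and 6.48 CPM (log2 fold change -1.52, SE 0.32, adjusted p = 0.02). Groups without overlap were seen for 18.4% of all genes tested in the higher direction and for 22.5% in the lower. G42 was the lowest of the PZH administration rats in Cyba and Ncf1. Without M13, M24 or G42 the number of members called fell from 4 to 1, Nox4 alone, while the number of all genes called fell from 2722 to 271, 725 and 1221. The log2 fold changes in these 3 fits were -1.12 to -1.04 for Cybb, -1.07 to -0.82 for Cyba and -1.40 to -1.29 for Ncf1.

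Ncf4 was at 5.07, 5.42 and 4.06 CPM in G27, G28 and G42, and its difference from DEN model rats was not called (log2 fold change -0.57, 95% interval -1.14 to 0.0062, adjusted p = 0.15), although the groups did not overlap. Duox1 was at 5.03, 2.29 and 0.854 CPM (log2 fold change 0.67, 95% interval -0.87 to 2.20, adjusted p = 0.52). Duox2 was counted 9, 2 and 0 times, and pooled over rats it was 137-fold lower than in DEN model rats, with a counting interval of 76.2 to 274. The groups overlapped, since G27 (0.384 CPM) was above M17 (0.198 CPM), and without M24 the ratio was 75.2. Duoxa2 was counted 0 times in all 3 rats, which is at least 17.5-fold lower than the DEN model mean when set against a floor of 3 counts in each library (at least 8.05-fold without M24). Neither gene was tested in the filtered fit. In the fit without a filter the adjusted p was 0.02 for Duox2 and 0.025 for Duoxa2. In filtered fits with 1 rat left out, which both genes passed through the DEN model rats, the adjusted p was 0.071 to 0.085 without a PZH administration rat. It was 0.00088 (Duox2) and 0.0045 (Duoxa2) without M17, the DEN model rat with few counts, and these values too are a description and no support. Nox1 was counted 3, 3 and 0 times, at or under the floor in each rat.

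PZH administration rats were also compared with normal control rats. None of the 6 tested members passed the adjusted threshold in edgeR's quasi-likelihood test, against 5.21% of all 13348 genes tested; the count was also 0 with DESeq2 and with edgeR's exact test, and 1 member, Nox4, had an unadjusted p under 0.05, against 18.5% of all genes. Nox4 was lower in every PZH administration rat than in any normal control rat (log2 fold change -0.93, 95% interval -1.65 to -0.21, adjusted p = 0.15). Groups without overlap were seen for 10.6% of all genes in the lower direction. The intervals of the others held 0: -0.18 to 0.92 for Cybb, -0.60 to 0.88 for Cyba, -0.19 to 1.3 for Ncf1, -0.34 to 1.03 for Ncf4 and -2.27 to 2.94 for Duox1. A missed threshold does not show that these genes were at the same level.

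**Figure D2:**
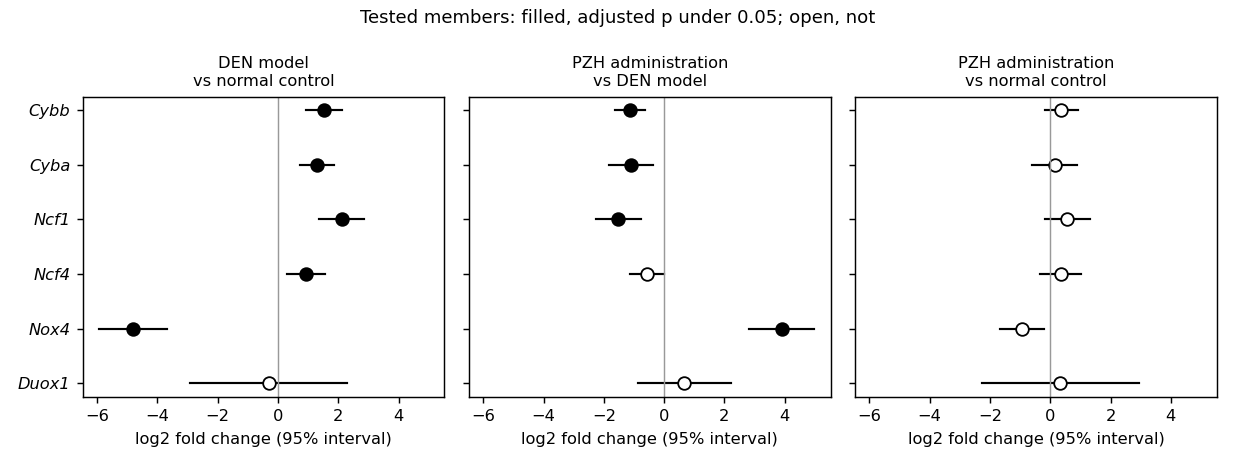
Log2 fold change with its 95% interval for the 6 tested members in the 3 comparisons; filled points have an adjusted p under 0.05. Nox4 lies opposite to Cybb, Cyba, Ncf1 and Ncf4 in the panels against DEN model rats, and every point in the right panel is open.

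Per length, on the deposited FPKM scale, the order of the members by mean differed between DEN model rats and the other groups. Normal control and PZH administration rats both had Nox4, Ncf4, Ncf1 and Duox1 in that order below Cyba and Cybb, which overlapped. In normal control rats Cyba (12.6 ± 3.14 FPKM, mean ± SD, n = 3), Cybb (11.7 ± 3.19) and Nox4 (8.01 ± 3.64) led with overlapping values, and were separate from Ncf4 (2.01) and Ncf1 (1.69). In DEN model rats Cybb (62.8 ± 19.0) and Cyba (57.3 ± 19.0) led and did not differ beyond their spread. Below them came Ncf1 (13.6), Duox2 (7.48 ± 7.31), Ncf4 (7.07) and Duoxa2 (5.16), whose neighbours in the order overlapped, and then Nox4 (0.533) and Duox1 (0.478), which also overlapped. In PZH administration rats Cybb (17.8 ± 2.99) and Cyba (16.2 ± 5.55) led, and Nox4 (4.81 ± 1.09) lay separately below them and above Ncf4 (2.95) and Ncf1 (2.88). Nox1 was last in normal control and DEN model rats, and Duoxa2 in PZH administration rats. FPKM was scaled to library totals only, so levels between groups are not set side by side from it.

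Ratios within a rat do not depend on the scaling. Nox4 FPKM was 82.5% of Cybb FPKM in N1, 42.3% in N3 and 81.2% in N12. It was 1.10% in M13, 0.391% in M17 and 0.858% in M24, and 39.3% in G27, 25.0% in G28 and 19.5% in G42. The 3 groups did not overlap in this ratio. The ratio of Cyba to Cybb FPKM ran from 0.528 to 1.35 with all groups overlapping. The ratio of Ncf1 to Ncf4 FPKM was 1.43 to 2.13 in DEN model rats, above the 0.590 to 1.01 of normal control rats and the 0.785 to 1.10 of PZH administration rats.

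**Figure D3:**
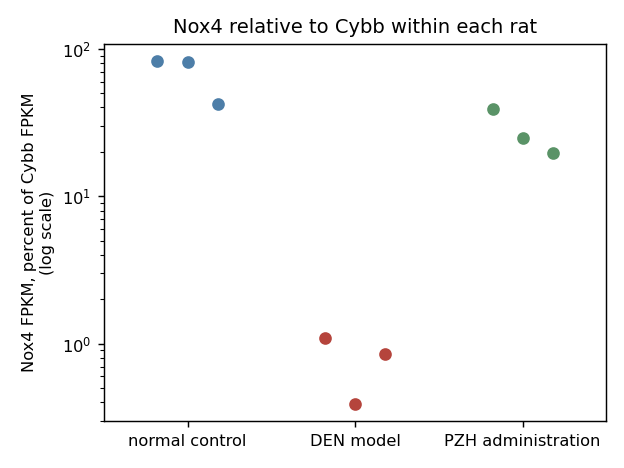
Nox4 FPKM as a percent of Cybb FPKM within each rat, on a log axis; each point is a rat. Normal control rats lie between 42.3% and 82.5%, PZH administration rats between 19.5% and 39.3%, and DEN model rats between 0.391% and 1.10%.

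Cell type markers were measured beside these genes, and their counts stand against the shares of all genes called, 25.3% higher and 20.5% lower in DEN model against normal control rats and 8.72% higher and 10.3% lower in PZH administration against DEN model rats. Of 14 macrophage markers tested, 3 were higher and 3 lower in DEN model than in normal control rats, which is near the 45.8% of all genes and no result about the list. The genes for lysozyme (Lyz2, log2 fold change 3.57, adjusted p = 0.00032) and Gpnmb (2.89, adjusted p = 0.00038) were higher. The lipid receptor gene Trem2 was at 0 in all normal control rats and at 1.83, 0.792 and 1.91 CPM in M13, M17 and M24, and it passed the filter through the DEN model rats alone. The Kupffer cell genes Clec4f (-1.28, adjusted p = 0.009), Vsig4 (-1.54, adjusted p = 0.013) and Marco (-2.72, adjusted p = 0.02) were lower. The summed CPM of the list was 877 to 1508 in normal control rats, 1254 to 1676 in DEN model rats and 571 to 1124 in PZH administration rats. Cybb was 4.77% to 7.88% of that sum in normal control rats and 11.5% to 12.4% in DEN model rats. In PZH administration rats this share was 6.42% to 14.7%, which overlaps both. The sum holds markers called higher and markers called lower, so the share is a description only. Against DEN model rats, 6 of the 14 macrophage markers were lower and 0 higher in PZH administration rats.

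Granulocyte markers were low in every group. Only 6 of 15 passed the filter on low counts, some of them through the DEN model rats alone, so their count is not a result. Csf3r, the receptor gene for granulocyte colony-stimulating factor, was at 0.468 to 0.838 CPM in normal control rats, 3.96 to 9.73 in DEN model rats and 2.06 to 2.23 in PZH administration rats. The list summed to 2.93 to 3.51 CPM in normal control rats, 21.8 to 47.3 in DEN model rats and 6.33 to 7.12 in PZH administration rats. The defining granule genes Mpo, Elane, Prtn3 and Ctsg were at 0 in all normal control rats and at most at 2.29 CPM in any rat. Of 8 T and NK cell markers tested, 5 were higher and 1 lower in DEN model rats, against 25.3% and 20.5% of all genes. Among the higher, Cd3g (0.312, 0.335 and 0.610 CPM in N1, N3 and N12) passed the filter through the DEN model rats alone. Cd3e (0.234, 0.671 and 1.45 CPM in the same rats) also needed the DEN model rats to pass. The part of Cd3g and Cd3e in this count is no support. Cd3d and Klrb1 were not tested. B cell markers summed to 5.28 to 5.93 CPM in normal control rats, 4.90 to 7.28 in DEN model rats and 2.42 to 7.33 in PZH administration rats. The part of cell makeup in the levels of Cybb, Cyba, Ncf1 and Ncf4 was not tested.

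Hepatocyte markers were lower in DEN model rats, and M17 had the highest marker sum of that group. Of 14 tested, 9 were lower and 0 higher in DEN model rats (median log2 fold change -1.99, against 0.029 over all genes), and 7 were higher and 0 lower in PZH administration than in DEN model rats. Their summed CPM was 183113 to 193470 in normal control rats, 51076 in M13, 87102 in M17, 37358 in M24 and 149397 to 184680 in PZH administration rats. Per 1000 CPM of that sum, Nox4 was at 0.133 to 0.309 CPM in normal control rats, 0.00568 to 0.0412 in DEN model rats and 0.0962 to 0.135 in PZH administration rats. The part of hepatocyte content in the level of Nox4 was not tested. Stellate cell and myofibroblast markers went the other way: 13 of 15 were higher in DEN model rats and 0 lower, and 9 were lower in PZH administration than in DEN model rats. Among these 9, Lum (0.298, 1.46 and 0.783 CPM in G27, G28 and G42) needed the DEN model rats to pass the filter, so its call is no support. Of 10 sinusoidal endothelial markers, 3 were higher and 5 lower in DEN model rats. Among the higher, Cd34 (0.468, 0.335 and 0.153 CPM in N1, N3 and N12) passed the filter through the DEN model rats alone. Its part in that count is no support.

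Epithelial markers were measured beside Duox2 and Duoxa2. The 10 cholangiocyte and progenitor markers, such as the adhesion gene Cd24 (log2 fold change 5.24 in DEN model against normal control rats, adjusted p = 2e-05), summed to 34.5 to 46.9 CPM in normal control rats, 369 to 913 in DEN model rats and 117 to 173 in PZH administration rats. M17, with the least Duox2 of the DEN model rats, had the lowest sum of that group. A low sum in M17 was not particular to epithelial markers. M17 was also the lowest DEN model rat for the macrophage, granulocyte, B cell, and T and NK cell lists. The same held for stellate cell and myofibroblast markers (1424 CPM, against 2450 in M13 and 3788 in M24). Of 12 gut epithelial markers 7 passed the filter, some of them through the DEN model rats alone, so their calls are not counted. The whole gut list summed to 193 to 215 CPM in normal control rats, 181 in M13, 74.1 in M17, 680 in M24 and 34.4 to 139 in PZH administration rats, so that M13 and M17 lay below the normal control rats. Most of the sum in normal control rats was Cdh17, a cadherin gene of liver and intestine, at 189 to 211 CPM there, 13.4 in M13, 10.9 in M17 and 273 in M24. Without Cdh17, which was left out after its values were seen, the list summed to 2.96 to 3.86 CPM in normal control rats, 168 in M13, 63.2 in M17, 407 in M24 and 8.27 to 21.8 in PZH administration rats. M13 and M24, the rats with Duox2, had the higher sums without Cdh17, and the gut lectin gene Lgals4 stood at 34.6 CPM in M13, 0.495 in M17 and 164 in M24. The guanylate cyclase gene Gucy2c differed from this order, with 11.7 CPM in M13, 38.8 in M17 and 32.2 in M24. Muc13 was at 77.8 CPM in M24 and at 0.0425 or less in every other rat. Noxo1 and Noxa1, the organizer and activator of NOX1, were at 0 in all normal control rats, and at 2.21, 0 and 0.333 CPM (Noxo1) and 0.340, 0.148 and 0.790 CPM (Noxa1) in M13, M17 and M24. The part of these cell types in the Duox2 counts was not tested.

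**Figure D4:**
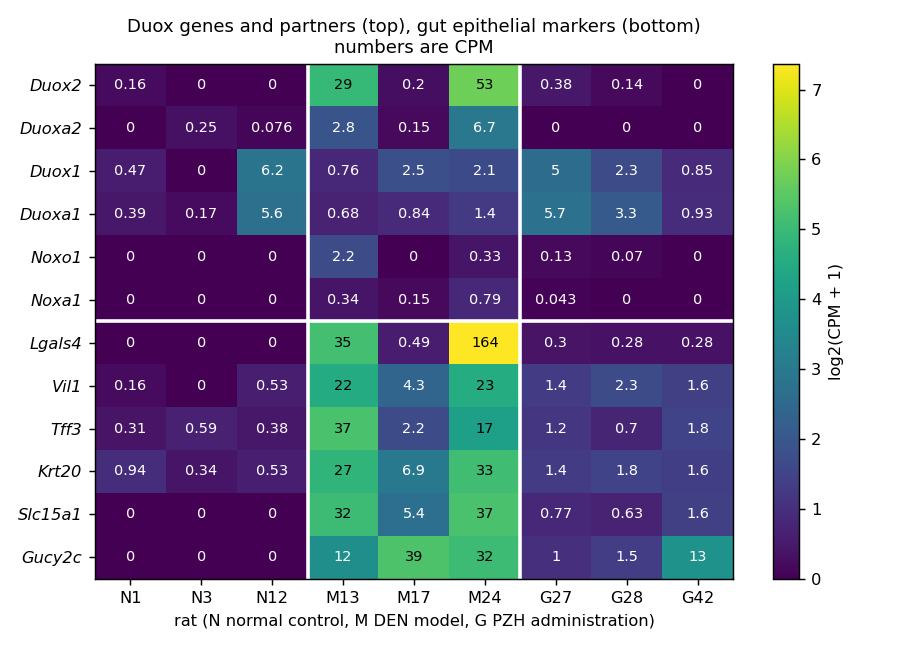
CPM of Duox2, Duoxa2, Duox1, Duoxa1, Noxo1 and Noxa1 (top) and of 6 gut epithelial marker genes (bottom) in each of the 9 rats, colored by log2(CPM + 1). Duox2, Duoxa2 and Lgals4 are high in M13 and M24 and low in M17, while Gucy2c is higher in M17 than in M13.

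The partners of the oxidases outside the 9 genes were mixed. Of 14 partner genes matched, 11 were tested. In DEN model against normal control rats 5 were higher and 2 lower (median log2 fold change 0.24, against 0.029 over all genes), beside 25.3% and 20.5% of all genes. Higher were Arhgdib, a binding protein of Rac GTPases (1.31, SE 0.22, adjusted p = 0.0018), the proton channel gene Hvcn1 (1.75, SE 0.43, adjusted p = 0.011), the adaptor gene Sh3pxd2b (1.60, SE 0.42, adjusted p = 0.015) and Rac2, the GTPase of blood cells (1.00, SE 0.28, adjusted p = 0.02). Lower were Rac3 (-2.17, SE 0.51, adjusted p = 0.0087) and Poldip2, whose product binds p22phox and raises NOX4 activity (-1.15, SE 0.27, adjusted p = 0.0091). Rac3 was at 0.382, 0.396 and 0.208 CPM in M13, M17 and M24. It passed the filter through the normal control rats alone, so its call is a description and no support. When PZH administration rats were set against DEN model rats, Arhgdib was lower (-1.11, adjusted p = 0.02) and Rac3 higher (2.09, adjusted p = 0.023). The other 9 were not called, Poldip2 at 0.79 (adjusted p = 0.2). These calls are near the 19.1% of all genes (8.72% higher, 10.3% lower) and no result about the list. Rac3, at 1.66, 1.04 and 1.42 CPM in G27, G28 and G42, passed the filter here through the PZH administration rats alone, so its call is no support. Duoxa1, the partner of DUOX1, was at 0.390, 0.168 and 5.64 CPM in N1, N3 and N12, at 0.679, 0.841 and 1.37 CPM in M13, M17 and M24, and at 5.67, 3.27 and 0.925 CPM in G27, G28 and G42. N12 and G27 were thus the highest rats for both Duox1 and Duoxa1. Nox3, the oxidase of the inner ear, was at 0 in every rat.

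Genes on the list of activators of the phagocyte oxidase, which also holds an inhibitory receptor gene, were mostly higher. Of 15 tested, 14 were higher in DEN model rats and 1 lower (median log2 fold change 1.17), beside 25.3% and 20.5% of all genes. Of the higher genes, the 4 with the smallest P were Pik3cg, a lipid kinase gene of leukocytes (2.23, adjusted p = 0.00043), the phospholipase genes Pld1 (1.87, adjusted p = 0.0017) and Pla2g4a (1.46, adjusted p = 0.0021), and the endotoxin receptor gene Tlr4 (1.58, adjusted p = 0.0023). The lower gene was Fcgr2b, the inhibitory Fc receptor, which in liver is found on sinusoidal endothelium and was also on that marker list (-1.67, adjusted p = 7e-04). In PZH administration against DEN model rats 7 of the 15 were lower and 1 higher (median -1.02, against 0.0053 over all genes), beside 10.3% and 8.72% of all genes. Pik3cg (-1.36, adjusted p = 0.016), Pld1 (-1.37, adjusted p = 0.022), Pla2g4a (-1.03, adjusted p = 0.026) and Tlr4 (-0.96, adjusted p = 0.02) were lower, and Fcgr2b was higher (1.33, adjusted p = 0.011).

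**Figure D5:**
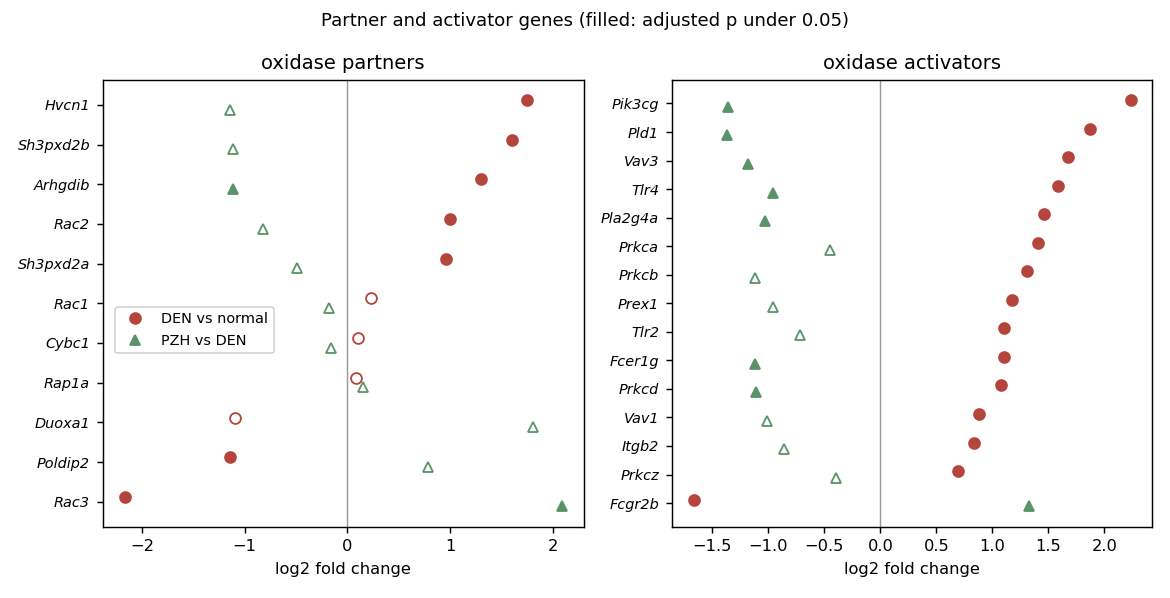
Log2 fold change of the tested partner genes (left) and activator genes (right) in DEN model against normal control rats (circles) and PZH administration against DEN model rats (triangles); filled symbols have an adjusted p under 0.05, and the comparisons share the DEN model rats. All 15 circles of the activator list are filled, 14 of them to the right of 0, while the partners lie on both sides.

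Among enzymes that use or remove the products of the oxidases, the peroxidase gene Pxdn was higher in DEN model rats (2.33, adjusted p = 0.00041) and lower in PZH administration than in DEN model rats (-1.87, adjusted p = 0.0083). Lpo was not called (-0.99, adjusted p = 0.51), and Mpo and Epx were too low to be tested. Of 16 genes that remove superoxide or hydrogen peroxide, 3 were higher and 7 lower in DEN model rats, beside 25.3% and 20.5% of all genes. Higher were Gpx3 (2.64, adjusted p = 0.00014), Txnrd1 (1.99, adjusted p = 0.001) and Prdx2 (0.62, adjusted p = 0.012). Among the lower were the glutathione peroxidase gene Gpx1 (-2.61, adjusted p = 0.00043), Prdx5 (-1.51, adjusted p = 0.0012), Txnrd2 (-1.86, adjusted p = 0.0023) and the superoxide dismutase gene Sod1 (-1.51, adjusted p = 0.0028). PZH administration rats had 3 of these genes higher and 1 lower than DEN model rats, beside 8.72% and 10.3% of all genes. Gpx1 was higher (1.08, adjusted p = 0.016) and Txnrd1 lower (-1.14, adjusted p = 0.043), while Gpx3 was not called (-0.75, adjusted p = 0.079). Gpx3 and Gpx1 were the only genes of these 16 called in PZH administration against normal control rats, beside 5.21% of all genes. The former was higher (1.86, adjusted p = 0.005) and the latter lower (-1.58, adjusted p = 0.013).

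The genes whose pattern over the 9 rats was most like that of each member were found by the root mean square (RMS) difference of centred log2(CPM + 1) values among 11967 genes, a description without a test in which all genes share the same libraries. The nearest to Nox4 were Akr1c1 (RMS 0.33), Serpina3c (0.51) and Notum (0.52). Cybb was nearest to Lrrc49 (0.082), Pgghg (0.095) and Rerg (0.11), Cyba to Arhgdib (0.14), Apobec1 (0.15) and Ada (0.16), Ncf1 to Efemp2 (0.16), Prr15l (0.16) and Kif3c (0.16), and Ncf4 to Rgs19 (0.087), Nfkb1 (0.089) and Ier3 (0.091). Duox1 was nearest to Duoxa1 (0.36), before Col27a1 (0.49) and Irf8 (0.52). Duox2 was nearest to Tmem45b (0.47), Lgals4 (0.51) and Ms4a8 (0.55), and Duoxa2 to the brush border myosin gene Myo1a (0.19), Sdcbp2 (0.22) and Prr7 (0.25).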

How the data were processed

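Liver RNA-seq of 9 rats was analysed from 1 deposited table. The count columns, deposited without normalization by the authors, give reads per gene in whole numbers, and its FPKM columns hold values the authors scaled by length and library total. The authors' own comparison columns (group means, log2 fold changes, P-values, Q-values) were not used. The submitters' processing notes name fastp, HISAT2 2.1.0, StringTie 1.3.3b and edgeR 3.30.3; the counter and genome build are not given in the sources used here.

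In R 4.3.3, edgeR 4.0.16 was run on the 6 rats of each comparison: filterByExpr, TMM, then quasi-likelihood tests without covariates, with Benjamini-Hochberg adjustment over all genes tested. SE is the absolute log2 fold change over the root of F, and intervals use the residual plus prior degrees of freedom of the fit. An exact permutation test of 3 against 3 rats cannot go below p = 0.1, which was its value for each tested member whose groups did not overlap. Fits were tested on simulated counts. Alternatives were DESeq2 1.42.0, library totals, no filter, a minimum of 10 counts in every rat, 1 fit over all 3 groups, edgeR's exact test, the study's thresholds and leaving out each rat.

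Members and lists were chosen with earlier results of these data known. All members are named; in the other lists, up to 4 called genes per direction with the smallest P in DEN model against normal control rats, and lists of 5 or fewer in full, apart from an item that is not reported here; and for each member with a mean of at least 1 CPM the 3 genes most like it. Lgals4, Muc13, Cdh17, Mpo, Elane, Prtn3, Ctsg, Noxo1, Noxa1, Duoxa1 and Nox3 were singled out after their values were seen. Cd24 and Csf3r were named outside the rule on the smallest P, as Cftr and S100a8 had a smaller P in the same lists. Itgam, Srxn1, Timd4, Ccr2, Pecam1, G6pc1 and Cyp3a2 were not analysed here. Protein sequences were not used here.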

Additional observations from a re-analysis of the deposited data

How the results depend on the processing

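Nox4 kept its direction and its call in the comparisons with DEN model rats under all 12 alternatives, with log2 fold changes of -5.18 to -3.91 in DEN model against normal control rats and of 3.17 to 4.29 in PZH administration against DEN model rats. The number of members called in DEN model against normal control rats was 5, and 2 under the study's thresholds, 7 without a filter, and 4 to 7 when a rat was left out; counts above 5 add Duox2 or Duoxa2, which with a rat left out pass the filter only through the DEN model rats in which they are high, so that these added calls are no support. In PZH administration against DEN model rats it was 4, and 1 under the study's thresholds, 5 with library totals, 6 without a filter, and 1 to 6 when a rat was left out (1 without M13, M24 or G42, and 6 without M17, where Duox2 and Duoxa2 were added in the same way). Cyba lost its call in 4 alternatives there and Cybb and Ncf1 in 3 each, with adjusted p up to 0.14, 0.07 and 0.079, while their log2 fold changes stayed at -1.82 to -0.82, -1.82 to -1.04 and -2.24 to -1.29 over all alternatives; Ncf4 was called with library totals (-1.26, adjusted p = 0.013). In PZH administration against normal control rats it was 0 under every alternative.

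The number of all genes called in DEN model against normal control rats was 6529, and 1753 under the study's thresholds. In PZH administration against DEN model rats it was 2722, and 347 under the study's thresholds, 6252 with library totals, and 271 to 3319 when a rat was left out. In PZH administration against normal control rats it was 696, and 310 under the study's thresholds, 1320 with DESeq2, 340 with at least 10 counts in every rat, 1310 with the exact test, and 207 to 1326 when a rat was left out. With library totals the share of calls that were higher went from 55.3% to 89.5%, from 45.7% to 8.89% and from 78.0% to 90.0% in the 3 comparisons.

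Duox1, never called, changed sign against normal control rats in DEN model rats with library totals (0.49), without M13 (0.053) and without N12 (2.89), with a range of -0.90 to 2.89 when a rat was left out, in PZH administration against DEN model rats with library totals (-0.018) and without G27 (-0.16; range -0.16 to 1.09), and in PZH administration against normal control rats without G27 (-0.49), N1 (-0.16) or N3 (-0.24; range -0.49 to 3.49). Cyba, not called there, changed sign without G27 (-0.077) or N1 (-0.021; range -0.077 to 0.41). The cause was not tested. No paired analysis was possible because the rats of different groups share no numbers. Nox1 was at or under 3 counts in every rat, so that no fold can be given for it at this depth. The ratios without M24 were added after seeing the data.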
